A study of Mus musculus with 78 samples.

Results

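The comparison described here set flank skin of mice treated with the antibody G6 against flank skin of untreated mice at day 20 of the Ad-VEGF-A164 model. All arrays whose source label names day 20 and G6 treatment were taken (8 arrays), with all arrays whose source label names day 20 and no treatment (8 arrays), which is 16 of the 78 arrays in the series. The G6 group and the untreated group were both athymic nude mice (Crl:NU(NCr)-Foxn1nu), female and 4 to 6 weeks old, and both had received an intradermal injection of Ad-VEGF-A164, an adenovirus carrying a VEGF-A gene, into the flank, and also into the ears. The G6 mice were given 10 mg/kg of G6 by the intraperitoneal route, and the untreated mice no antibody. The groups used as background are DC101 at day 20 (20 mg/kg, 8 arrays), G6 and untreated tissue at day 5 and at day 60 (8 arrays each), and flank labelled control at day 0 (8 arrays), for which no virus or antibody is named. RNA of the tissue was measured on Affymetrix Mouse Genome 430 2.0 arrays.

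Several features limit these groups as a model. G6 is counted by the submitters among antibodies to VEGF receptors, and its own target is not named in the sources used here. The labels place both groups at day 20 without saying whether that day counts the antibody dose or the harvest, no group is labelled with an empty virus or a control antibody, and arrays are not tied to animals. The design text gives at least 5 animals a group where each group has 8 arrays, so the p-values below measure the spread between arrays, which may be partly technical. Nude mice lack a thymus, and the T-cell genes Cd3e and Lck did not pass the filter on low signal. Of 52 marker genes of the cell types that flank skin can hold, 44 passed that filter and 35 were above its level on all 16 arrays, among them the markers of endothelium, pericytes, dermal fibroblasts, macrophages, keratinocytes and skeletal muscle.

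VEGF-A released in skin acts on endothelial cells mainly through the receptor VEGFR-2, the product of Kdr, while VEGFR-1, the product of Flt1, binds VEGF-A tightly and signals weakly. Sustained VEGF-A makes resting venules and capillaries enlarge, sprout and leak, and the sprouts are led by tip cells that express Dll4, Apln and Esm1, while the cells behind them express Notch receptors and Aplnr. New vessels recruit pericytes through PDGF-B and its receptor Pdgfrb and lay down a basement membrane of type IV collagen, laminins and nidogens.

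Levels are given as MAS5 signal units, always as the lowest, the median and the highest array of a group, and only within a gene, since probe sets differ in brightness. Differences are G6 minus untreated on the scale of log2(signal + 16), where 1 unit is a 2-fold difference, with the standard error of the fit after the ± sign. A gene was called where limma's moderated test, fitted over the 14718 genes that passed the filter, gave a Benjamini-Hochberg adjusted p below 0.05.

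Untreated arrays 51 and 52, numbered as in the sample titles, stood apart from the other 6 untreated arrays. The mean level of 34 endothelial genes was 13.03 and 13.15 on these arrays, above the 11.25 to 12.45 of the other 6 (log2 scale). The mean level of 26 hair genes was 7.71 and 7.74, below the 11.75 to 13.78 of the other 6. The hair keratin Krt25 had 623.3 and 212 signal units on arrays 51 and 52, where the median of all 8 untreated arrays was 67139.4. Whether these 2 samples differed in tissue mixture or hair stage was not tested, and the values without them are given beside those that rest on them. The median signal of an array was 491.91 to 559.97 in G6 tissue and 512.21 to 582.58 in untreated tissue, and the median 3' to 5' ratio of Actb probes was 1.448 in G6 tissue and 1.42 in untreated tissue. In the background groups this median ratio differed more. It was 1.76 in G6 and 1.623 in untreated tissue at day 5, 2.216 and 1.878 at day 60, and 1.735 in DC101 tissue at day 20. Log2 levels of any pair of the 16 arrays correlated across genes with r of 0.792 to 0.972 and shared at most 7 identical values among 45101 probe sets.

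Over all 16 arrays, genes of endothelial cells, pericytes and the vascular basement membrane were lower in G6-treated than in untreated flank at day 20, and genes of the activated epidermis were higher. The test called 1469 of 14718 genes (9.98%), of which 584 were higher (3.97%) and 885 lower (6.01%). At least 2-fold differences were found for 449 of them (3.05% of all genes). Without arrays 51 and 52 the same test called 98 genes (0.666%), 10 higher (0.0679%) and 88 lower (0.598%), and 1962 genes had an unadjusted p below 0.05. The 10 that were higher both ways were Saa3, Ptk6, Pla2g4e, Ccdc122, Egln3, Glt28d2, Cirbp, Higd1a, Mvd and Rnf7. All 1469 genes had the same sign without arrays 51 and 52, and 97 of the 98 were among the 1469. The median difference over all genes was -0.006 with the 16 arrays and -0.022 without arrays 51 and 52.

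**Figure D1:**
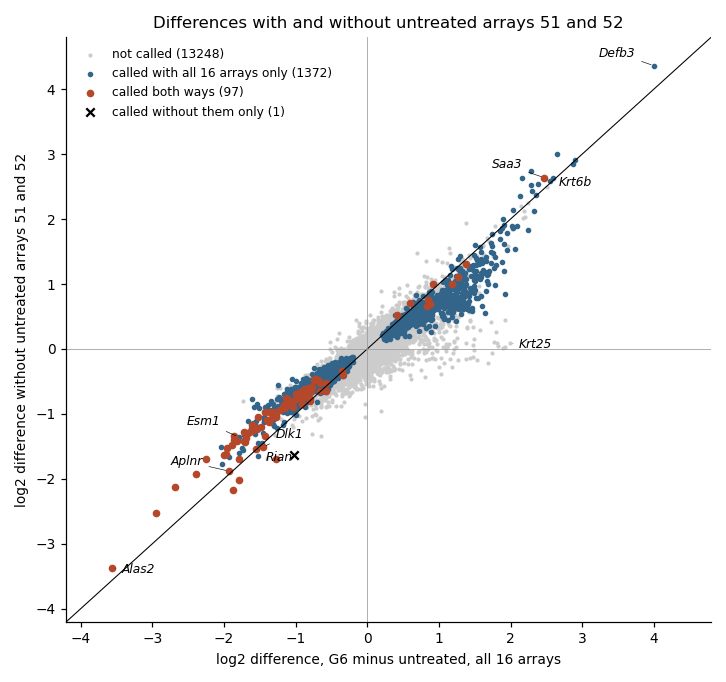
Each point is 1 of 14718 genes, with its log2 difference (G6 minus untreated, day 20) over all 16 arrays on the x axis and without untreated arrays 51 and 52 on the y axis. The 97 genes called both ways lie near the diagonal, while Krt25 has a difference of 1.99 on the x axis and 0.09 on the y axis.

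The G6 and untreated arrays did not overlap at all for 19 genes (0.129%). Aplnr, the receptor for apelin, had 3563.3, 8629.6 and 16275.7 signal units on the G6 arrays and 19611.8, 33700.5 and 37709.7 on the untreated arrays. Every G6 array was below every untreated array, and arrays 51 and 52 lay inside the range of the other untreated arrays. The difference was -1.93 ± 0.30 (adjusted p = 1.5e-05), and -1.88 ± 0.32 without arrays 51 and 52 (adjusted p = 0.000781); the call thus held without them. The second Aplnr probe set gave -1.45. Apln, which encodes the ligand, had 1047.5, 1534.2 and 3792.6 units in G6 tissue and 1763.6, 2578.1 and 6423.8 in untreated tissue, with overlapping groups. It was lower with all 16 arrays (-0.88 ± 0.20, adjusted p = 0.00244), while the value without arrays 51 and 52 was -0.55 ± 0.19 (adjusted p = 0.146).

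Among the VEGF receptors, Kdr had 1080.8, 1991.7 and 4153.2 signal units in G6 tissue and 2102.7, 4963.3 and 14511.4 in untreated tissue. The lowest untreated array exceeded 6 of the 8 G6 arrays, and the 2 highest values were those of untreated arrays 51 and 52. Kdr fell by 1.43 ± 0.26 (adjusted p = 0.000218), and the difference was -0.97 ± 0.25 without arrays 51 and 52 (adjusted p = 0.0402). Flt1 fell by 1.55 ± 0.30 (adjusted p = 0.000435) and missed the threshold without those arrays (-1.10 ± 0.30, adjusted p = 0.0539). With every probe set tested on its own, a dimmer Flt1 probe set was called without them (-1.26, adjusted p = 0.0383). Further Flt1 probe sets were not (adjusted p = 0.0941 and 0.101). The lymphatic receptor gene Flt4 (-0.88 ± 0.34, adjusted p = 0.0843) and the co-receptor gene Nrp2 (-0.25 ± 0.22, adjusted p = 0.553) were not called by their brightest probe sets. With every probe set tested on its own, a dimmer one was lower for Flt4 (-1.12, adjusted p = 0.0268) and for Nrp2 (-0.80, adjusted p = 0.00438). Neither was called without arrays 51 and 52 (adjusted p = 0.368 and 0.127), and further Nrp2 probe sets (-0.21 and -0.24) were not called. The co-receptor gene Nrp1 was lower with all arrays (-0.98 ± 0.22, adjusted p = 0.00219) and at -0.72 ± 0.23 without the 2 (adjusted p = 0.101). A dimmer Nrp1 probe set, tested on its own, was called with all arrays (-1.13, adjusted p = 4.21e-05) and without the 2 (-0.89, adjusted p = 0.00702). Further Nrp1 probe sets were not called without the 2 (adjusted p = 0.0983 and 0.13).

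Of the ligands, Vegfa had 1643.1, 4995.7 and 14390 units in G6 tissue and 1876.6, 6024.1 and 26941.1 in untreated tissue. Both groups spread widely, the 2 highest values being those of untreated arrays 51 and 52. The difference of -0.53 ± 0.39 was not called (adjusted p = 0.436) and was 0.10 ± 0.37 without those arrays. A dimmer Vegfa probe set gave 0.59 (adjusted p = 0.0252) with all arrays and 0.40 (adjusted p = 0.342) without arrays 51 and 52, so the 2 probe sets disagreed in sign with all 16 arrays. Vegfc (-0.75 ± 0.27, adjusted p = 0.0649) and Pgf (-0.92 ± 0.44, adjusted p = 0.176) were not called. With every probe set tested on its own, a dimmer Vegfc probe set was lower with all arrays (-0.91, adjusted p = 0.0222). It was not called without arrays 51 and 52 (-0.72, adjusted p = 0.25), and a further Vegfc probe set was not called with all arrays (-1.10, adjusted p = 0.0914). The Tie ligand gene Angpt2, which activated endothelium releases, fell by 1.43 ± 0.28 (adjusted p = 0.000601) and was at -0.90 ± 0.26 without arrays 51 and 52 (adjusted p = 0.0818). Angpt1 (-0.11 ± 0.15, adjusted p = 0.72) and its receptor gene Tek (-0.54 ± 0.23, adjusted p = 0.127) were not called. The receptor gene Tie1 was lower with all arrays (-1.55, adjusted p = 0.00529). Without arrays 51 and 52 it was at -1.18 (adjusted p = 0.159, with every probe set tested on its own). Of the 15 measured genes of VEGF and angiopoietin ligands and receptors, 5 were lower and 0 higher, with 11 below an unadjusted p of 0.05. By the brightest probe sets, Kdr alone was called without arrays 51 and 52.

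The endothelial identity genes moved together. Of 34 measured, 28 were lower and none was higher, all 34 had a difference below 0, and their median was -1.14 against -0.006 for all genes. Without arrays 51 and 52 all 34 were still below 0 with a median of -0.838, and 6 were called, namely Adgrf5, Cd93, Cdh5, Eng, Kdr and Robo4. In bulk tissue, fewer endothelial cells and less of these transcripts per cell cannot be told apart.

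Cdh5, which encodes VE-cadherin of the endothelial junction, had 1335.2, 2747.6 and 6441.9 units in G6 tissue and 4005.7, 9245 and 18175.5 in untreated tissue. The lowest untreated array exceeded 7 of the 8 G6 arrays, and the difference was -1.61 ± 0.29 with all arrays (adjusted p = 0.00017) and -1.26 ± 0.30 without arrays 51 and 52 (adjusted p = 0.0229). Robo4, a guidance receptor that stabilises vessels, had 636.8, 1235.3 and 2877.7 units in G6 tissue and 1735.1, 3829.2 and 10186.1 in untreated tissue. Its difference was -1.61 ± 0.24 (adjusted p = 9.59e-06) and -1.17 ± 0.22 without the 2 arrays (adjusted p = 0.00204). Cd93, which encodes an endothelial surface lectin, had 2011.6, 6566.9 and 16583.6 units in G6 tissue and 7906.8, 22056.3 and 36865.3 in untreated tissue, a difference of -1.71 that was -1.41 without the 2 arrays (adjusted p = 0.0166). The groups overlapped for Cdh5, Robo4 and Cd93, and also for Pecam1, which was not called (-0.69 ± 0.31, adjusted p = 0.149). Plvap was lower with all arrays (-1.16, adjusted p = 0.00401) and was not called without the 2 (-0.90, adjusted p = 0.126), with every probe set tested on its own.

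Among the genes with the largest falls, several belonged to endothelium. Pcdh12, an endothelial protocadherin, had 203.6, 387.9 and 1430.4 units in G6 tissue and 635.3, 2641.1 and 6120.3 in untreated tissue. Of the 8 G6 arrays, 4 were below the filter level of 331.2. The difference was -2.39 ± 0.39, and -1.93 ± 0.41 without arrays 51 and 52 (adjusted p = 0.00815). Pcdh17, another protocadherin, differed by -1.95 ± 0.30 and by -1.53 ± 0.30 without them (adjusted p = 0.00316). Fam167b had 32, 364.2 and 1061.6 units in G6 tissue and 572.6, 2161 and 7192.2 in untreated tissue, with a difference of -2.68 ± 0.50 and of -2.13 ± 0.52 without the 2 arrays (adjusted p = 0.0283). These genes were among the 40 that were lower in 6 of 6 settings of the fit (all arrays, arrays 51 and 52 left out, only the 2 groups in the fit, adjacent arrays averaged, RNA quality ratios as covariates, and array weights). Genes higher in all 6 settings numbered 2, Saa3 and Ccdc122.

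Of 32 measured tip-cell and VEGF-induced genes, 21 were lower and 1 was higher, the transcription factor gene Egr3 (1.05), with a median of -0.948, and 3 were called without arrays 51 and 52, namely Aplnr, Dll4 and Nid2. Esm1, a secreted proteoglycan of tip cells, had 350.2, 3132.2 and 8761.6 units in G6 tissue and 1215.7, 12217.5 and 22429.7 in untreated tissue. The groups overlapped over much of their range, and the call (-1.80 ± 0.56, adjusted p = 0.0273) was lost without the 2 arrays (-1.36 ± 0.59, adjusted p = 0.285). Dll4, the Notch ligand of tip cells, had 324.3, 405.9 and 918.6 units in G6 tissue and 467.8, 992.8 and 1950.4 in untreated tissue. It differed by -1.16 ± 0.21 (adjusted p = 0.000163) and by -0.86 ± 0.21 without arrays 51 and 52 (adjusted p = 0.0255).

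Of 19 measured arterial and Notch pathway genes, 9 were lower and none higher with all 16 arrays, at a median of -0.751, and Dll4 and Notch4 were called without arrays 51 and 52. Notch4, the endothelial Notch receptor, had 674.5, 1789 and 5863.9 units in G6 tissue and 3539.2, 8027.4 and 15552.4 in untreated tissue. The lowest untreated array exceeded 6 of the 8 G6 arrays. The difference was -1.98 ± 0.37 (adjusted p = 0.00027), and -1.62 ± 0.39 without the 2 arrays (adjusted p = 0.0255). Gja4, an arterial connexin gene (-1.28 ± 0.33), and Sox17, an arterial transcription factor gene (-1.17 ± 0.28), were lower with all arrays and were not called without the 2 (adjusted p = 0.15 for Gja4 and 0.1 for Sox17). Jag1, Notch1 and Jag2 had values of -0.23, -0.12 and -0.04 and were not called.

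The promoters of 3 of these endothelial genes are shown because the genes moved together: Robo4 (chr9:37401722-37402021, plus strand), Notch4 (chr17:34564045-34564344, plus strand) and Kdr (chr5:75978406-75978705, minus strand), each of 300 bases around the transcription start in RefSeq on GRCm38.p6. Capitals mark AGGAAG or its reverse complement CTTCCT, a sequence that ETS factors such as Erg and Fli1 can bind. Other sequences that ETS factors can bind were not searched for and are not marked.
Robo4: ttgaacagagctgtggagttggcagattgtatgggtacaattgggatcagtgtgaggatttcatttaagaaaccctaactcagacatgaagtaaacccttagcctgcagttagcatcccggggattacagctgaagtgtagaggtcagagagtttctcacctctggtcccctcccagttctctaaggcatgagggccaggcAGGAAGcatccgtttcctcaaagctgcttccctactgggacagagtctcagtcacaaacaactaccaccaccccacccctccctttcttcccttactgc
Notch4: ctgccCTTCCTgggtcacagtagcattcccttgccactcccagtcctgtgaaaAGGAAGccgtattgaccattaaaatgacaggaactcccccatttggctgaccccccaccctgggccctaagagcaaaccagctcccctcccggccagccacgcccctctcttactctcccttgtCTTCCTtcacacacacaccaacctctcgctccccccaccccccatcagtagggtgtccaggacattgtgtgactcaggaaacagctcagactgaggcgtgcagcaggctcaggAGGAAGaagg
Kdr: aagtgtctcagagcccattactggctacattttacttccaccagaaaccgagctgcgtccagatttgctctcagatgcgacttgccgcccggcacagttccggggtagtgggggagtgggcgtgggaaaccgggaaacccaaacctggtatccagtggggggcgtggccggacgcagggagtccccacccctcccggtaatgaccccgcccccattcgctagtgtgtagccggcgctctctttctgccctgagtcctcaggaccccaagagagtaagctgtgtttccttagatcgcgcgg
The AGGAAG sequence, on either strand, occurred 1 time in the Robo4 window, 4 times in the Notch4 window and 0 times in the Kdr window. A count of 0 does not mean that a window has no ETS site. The AGGAAG sequence was in 16 of 40 promoters (40%) of the genes lower in all 6 settings, of which 32 of 40 genes were matched. It was in 5 of 8 promoters (62.5%) of the 12 largest rises, of which 8 genes were matched, and in 33.7% of promoters of all genes tested. Erg (-1.13) and Fli1 (-0.71) were themselves among the endothelial genes called lower with all arrays, and neither was called without arrays 51 and 52 (adjusted p = 0.26 for Erg and 0.45 for Fli1).

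Of 21 measured genes of capillary lipid handling and fenestration, 9 were lower and 2 higher. Gpihbp1, which anchors lipoprotein lipase on capillary endothelium, had 1712.3, 3575.8 and 9183.4 units in G6 tissue and 5366.1, 12083.8 and 39456.9 in untreated tissue. Its difference without arrays 51 and 52 was -1.34 ± 0.29 (adjusted p = 0.00937), where arrays 51 and 52 themselves had 36794.2 and 39456.9 units. Btnl9 (-1.63 ± 0.37, adjusted p = 0.015), Tcf15 (-0.77 ± 0.20, adjusted p = 0.0463) and Aqp1 were also called without them. Slc2a1 (0.72) and Mfsd2a (0.89), transporters of glucose and of lysophospholipid, were the higher ones with all arrays, and neither was called without the 2.

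Of 19 measured pericyte genes, 14 were lower and none higher, with a median of -1.036, and without arrays 51 and 52 the median was -0.769 with Gucy1b1 and Notch3 called and 14 below an unadjusted p of 0.05. Gucy1b1, a subunit of soluble guanylate cyclase, had 512.3, 1115.9 and 1907.4 units in G6 tissue and 1385.1, 4055.5 and 8051.3 in untreated tissue. The lowest untreated array exceeded 6 of the 8 G6 arrays, and the difference was -1.67 ± 0.32 (adjusted p = 0.000326) with all arrays and -1.29 ± 0.33 without the 2 (adjusted p = 0.0358). Pdgfb, the ligand that draws pericytes to endothelium, was lower (-1.12 ± 0.22, adjusted p = 0.000529), and so was its receptor gene Pdgfrb (-1.14 ± 0.28, adjusted p = 0.00514). Without the 2 arrays they were at -0.85 ± 0.23 (adjusted p = 0.0517) and -0.86 ± 0.29 (adjusted p = 0.143). Of 15 smooth muscle contractile genes, 5 were lower, led by Ppp1r14a (-1.63 ± 0.53), and 0 were called by limma without arrays 51 and 52, with 8 below an unadjusted p of 0.05. Ppp1r14a was not called in 10 of the 16 fits that each left out 1 array.

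Of 17 vascular basement membrane genes, 9 were lower and none higher, with a median of -0.662. Nid2, a nidogen that links laminin to collagen, had 638.5, 1251.7 and 2601.8 units in G6 tissue and 1399.4, 4393.3 and 11493.2 in untreated tissue. By the brightest probe sets, it was the 1 gene of the list called without arrays 51 and 52 (-1.28 ± 0.26, adjusted p = 0.00663), after -1.72 ± 0.27 with all arrays. Col4a1 and Col4a2, the chains of type IV collagen, differed by -1.12 ± 0.23 and -1.31 ± 0.27 with all arrays and by -0.90 ± 0.24 and -1.001 ± 0.28 without the 2. A dimmer Col4a1 probe set was called without the 2 (-1.07, adjusted p = 0.0188), with every probe set tested on its own. Of 22 wound matrix genes, 6 were lower, with Adam12 (-1.44 ± 0.32) and Col12a1 (-1.15 ± 0.31) first, and limma called 0 without arrays 51 and 52 (6 at an unadjusted p below 0.05). Adamts9, a matrix protease gene, was lower both ways (-1.39 ± 0.24 and -1.10 ± 0.24, adjusted p = 0.0115 without the 2 arrays). Fibrillar collagen and dermal fibroblast genes showed 0 calls among 21 by limma, with 5 below an unadjusted p of 0.05, and Col3a1 stood at 0.03 ± 0.13.

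**Figure D2:**
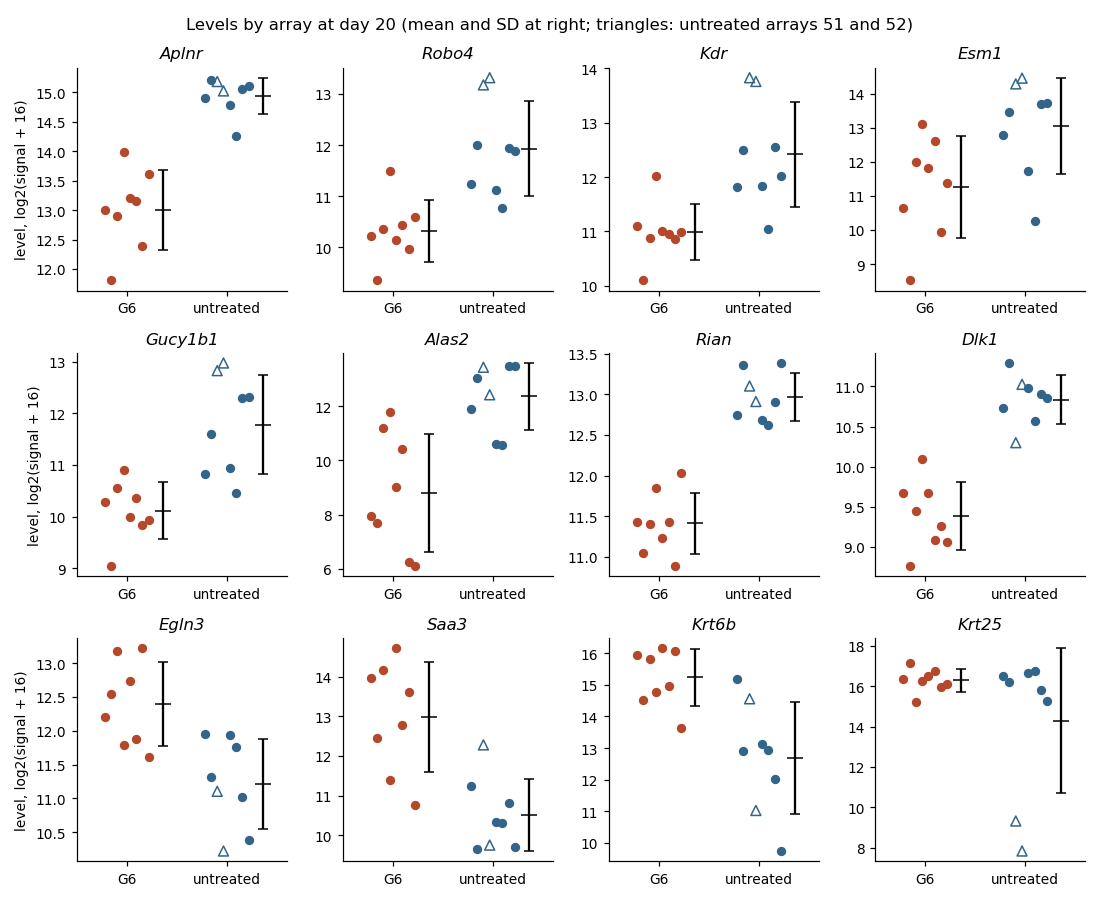
Level of 12 genes on each of the 8 G6 arrays (left, red) and the 8 untreated arrays (right, blue) at day 20, as log2(signal + 16), with the mean and SD at the right of each group and triangles for untreated arrays 51 and 52. Aplnr, Rian and Dlk1 do not overlap between groups, while Kdr and Robo4 are highest on the 2 triangles and Krt25 lowest on them.

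Among guidance and BMP or TGF-beta receptor genes of endothelium, 8 of 30 were lower and 1 higher. Plxnd1, the endothelial receptor for semaphorins (-1.21 ± 0.26, adjusted p = 0.00937), and Sema6d (-0.94 ± 0.17, adjusted p = 0.00159) held without arrays 51 and 52, as did Eng and Robo4. Of 20 coagulation genes, 5 were lower, among them the thrombin receptor genes F2r (-1.15 ± 0.32) and F2rl3, the second of which was below the filter level on all 8 G6 arrays, and limma called 0 without the 2 arrays (5 lower at an unadjusted p below 0.05). Of 18 venous and lymphatic genes, Ephb4 alone was lower (-0.50 ± 0.15, adjusted p = 0.0245), and it was at -0.31 ± 0.16 without the 2 arrays (adjusted p = 0.374).

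Genes of the imprinted locus of Dlk1, Meg3, Rian and Mirg on chromosome 12 were lower with all arrays, and these genes were chosen after their values were seen. Rian, a long noncoding RNA expressed from the maternal chromosome, had 1878.8, 2708.5 and 4154.8 units in G6 tissue and 6269, 7672.1 and 10696 in untreated tissue. The groups did not overlap, and the difference of -1.55 ± 0.19 (adjusted p = 1.98e-07) was -1.54 ± 0.21 without arrays 51 and 52 (adjusted p = 5.76e-06). Dlk1, which encodes a paternally expressed Delta-like protein, had 418, 639.6 and 1080.2 units in G6 tissue and 1243.2, 1875.2 and 2493.6 in untreated tissue, again without overlap. It differed by -1.45 ± 0.24 (adjusted p = 4.67e-05) and by -1.51 ± 0.26 without the 2 arrays (adjusted p = 0.000781). Meg3, a maternally expressed noncoding RNA, had 7945.2, 16608.7 and 31281 units in G6 tissue and 24365.9, 30861.3 and 41557.6 in untreated tissue. It was lower with all arrays (-0.88 ± 0.22, adjusted p = 0.00694) and at -0.86 ± 0.24 without the 2 (adjusted p = 0.0739). Its brightest probe set missed the threshold there, while another was called (-1.34, adjusted p = 0.00268, with every probe set tested on its own). Mirg, another noncoding RNA of the locus, was at -0.58 ± 0.19 (adjusted p = 0.0424) and at -0.48 ± 0.21 without the 2 arrays (adjusted p = 0.268). This brightest Mirg probe set was not called in 11 of the 16 fits that each left out 1 array. A second kept Mirg probe set was called both ways, with every probe set tested on its own. It was at -1.17 (adjusted p = 0.00286), and at -1.12 without the 2 arrays (adjusted p = 0.0459).

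Among other imprinted genes, Mest, a hydrolase gene, had 572.4, 1089.3 and 2585.2 units in G6 tissue and 1503.4, 2941.9 and 5090.3 in untreated tissue, and was lower with (-1.27 ± 0.22, adjusted p = 7.53e-05) and without arrays 51 and 52 (-1.03 ± 0.22, adjusted p = 0.0111). Igf2r was lower with all arrays (-0.50 ± 0.11, adjusted p = 0.00142) without overlap between groups, and missed the threshold without the 2 (-0.44 ± 0.12, adjusted p = 0.0517). Grb10 was lower with all arrays (-0.56) and was not called without the 2 (-0.48). Its adjusted p was 0.0314 and 0.241, with every probe set tested on its own. Igf2 (0.15 ± 0.21), Peg3 (-0.28 ± 0.19), Plagl1 (-0.18 ± 0.21), Cdkn1c (0.04 ± 0.25), Ndn (-0.29 ± 0.24) and Sgce (-0.31 ± 0.23) were not called. A dimmer Sgce probe set, tested in the same way, was lower with all arrays (-1.16, adjusted p = 0.0058) and not called without the 2 (-1.10, adjusted p = 0.078).

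The promoters of Rian (chr12:109603695-109603994, plus strand) and Dlk1 (chr12:109452573-109452872, plus strand), also from RefSeq on GRCm38.p6, are shown because these genes separated the groups on every array. The capitals have the same meaning as above.
Rian: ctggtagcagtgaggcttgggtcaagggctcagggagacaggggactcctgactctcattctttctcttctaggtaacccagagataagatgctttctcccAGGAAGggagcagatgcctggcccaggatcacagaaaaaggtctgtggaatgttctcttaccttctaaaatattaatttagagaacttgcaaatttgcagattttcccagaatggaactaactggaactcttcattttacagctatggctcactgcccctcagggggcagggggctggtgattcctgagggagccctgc
Dlk1: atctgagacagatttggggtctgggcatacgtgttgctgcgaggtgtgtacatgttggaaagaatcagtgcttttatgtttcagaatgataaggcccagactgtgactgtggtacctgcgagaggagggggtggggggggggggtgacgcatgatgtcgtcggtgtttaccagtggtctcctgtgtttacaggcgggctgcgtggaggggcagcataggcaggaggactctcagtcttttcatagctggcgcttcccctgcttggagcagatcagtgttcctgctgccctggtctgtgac
The AGGAAG sequence, on either strand, occurred 1 time in the Rian window and 0 times in the Dlk1 window.

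Genes outside the lists were also called both ways. Tmem255a had 220.9, 320.5 and 596.1 units in G6 tissue and 660.1, 1484.1 and 1953.5 in untreated tissue, without overlap, and 4 of the 8 G6 arrays were below the filter level. Its difference was -1.78 ± 0.28 and -1.69 ± 0.31 without arrays 51 and 52 (adjusted p = 0.00159). Mcf2l, which encodes a guanine nucleotide exchange factor, had 1070.7, 1305.4 and 1647.6 units in G6 tissue and 1834.6, 3013.7 and 5332.2 in untreated tissue, and differed by -0.91 ± 0.19 without the 2 arrays (adjusted p = 0.0058). Greb1 was the 1 gene called without arrays 51 and 52 and not with them (-1.64 ± 0.37, adjusted p = 0.0145, against -1.02 ± 0.38). With only these 2 groups in the fit and arrays 51 and 52 left out, 11 genes were called, and Aplnr, Rian, Dlk1, Tmem255a, Mcf2l and Greb1 were among them.

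The largest fitted fall of all called genes was in Alas2, which encodes the first enzyme of haem synthesis in red cell precursors. It had 53.2, 365.6 and 3548.4 units in G6 tissue and 1513, 6923.3 and 11377.1 in untreated tissue, and 4 of the 8 G6 arrays were below the filter level. On the log2 scale the G6 arrays spread more widely than the untreated arrays. The difference was -3.56 ± 0.61 (adjusted p = 8.77e-05), and -3.37 ± 0.67 without arrays 51 and 52 (adjusted p = 0.00373). Of 8 measured erythroid and platelet genes out of 17, 4 were lower, among them the band 3 gene Slc4a1 (-1.03 ± 0.33) and the platelet basic protein gene Ppbp (-1.47 ± 0.43), and the transferrin receptor gene Tfrc was higher (0.60). Alas2 alone of the list was called without arrays 51 and 52. Scg2, a secretogranin gene, had 25.3, 118.1 and 299.9 units in G6 tissue and 107, 1083.2 and 3838.8 in untreated tissue. All 8 G6 arrays were below the filter level, so its level there is not resolved. Set against the filter level, Scg2 was at least 2.75-fold lower, and at least 2.04-fold lower without arrays 51 and 52. These folds themselves were not tested. The adjusted p of limma's test against no difference, on the measured values, was 0.000195 (0.0156 without the 2 arrays). The rule for naming the largest falls, passing over clone and predicted genes, also took in Kcne3 (-2.04 ± 0.41) and Btnl9 (-2.01 ± 0.35), and Doxl1, Rtp3 and Adamts7. Doxl1 was below the filter level on all 8 G6 arrays and was at least 1.64-fold lower by the same measure. Its adjusted p in the test against no difference was 0.00027. Rtp3 and Adamts7 were below it on 7 of the 8, so the sizes of their falls are not resolved. Of these 5, Doxl1 (adjusted p = 0.037) and Btnl9 were also called without arrays 51 and 52.

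**Figure D3:**
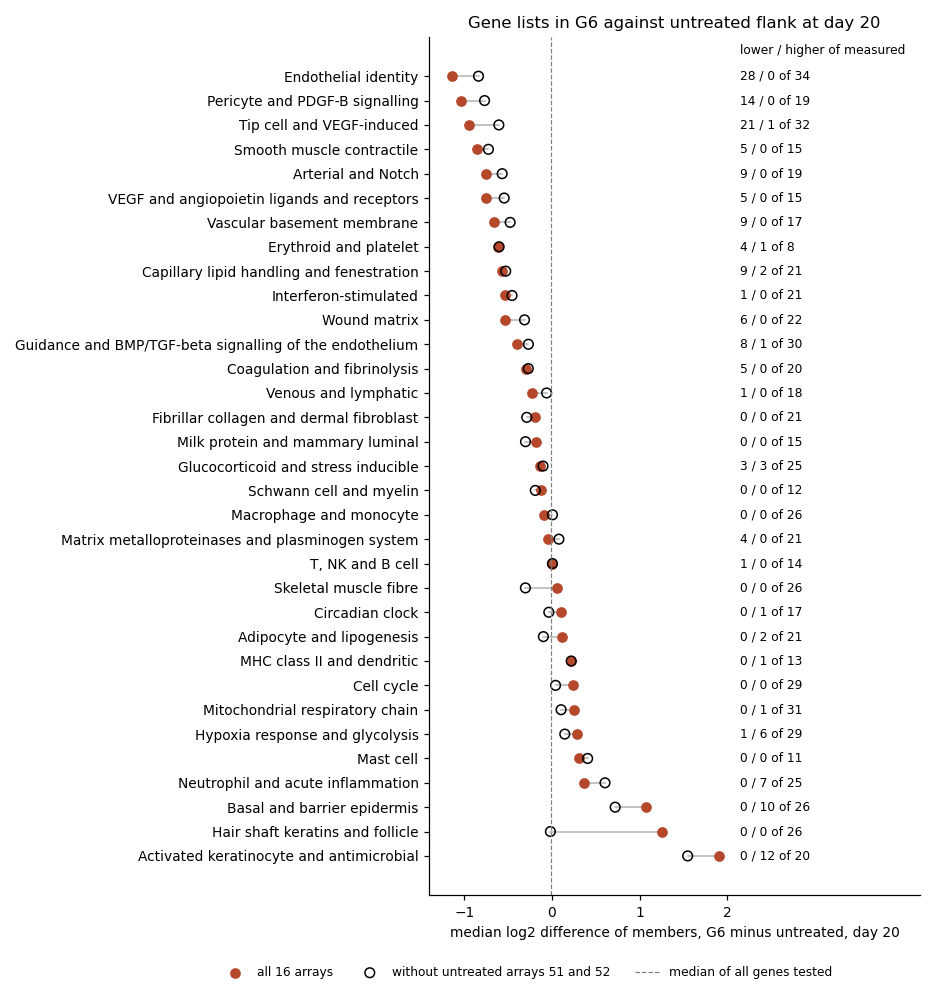
Median log2 difference (G6 minus untreated, day 20) of the measured members of 33 gene lists, with all 16 arrays (filled) and without untreated arrays 51 and 52 (open), with the numbers of members called lower and higher at the right. Endothelial identity lies at -1.14 and -0.838, activated keratinocyte at 1.902 and 1.548, and hair at 1.253 and -0.018.

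On the other side, genes of the activated epidermis were higher. Of 20 measured keratinocyte activation and antimicrobial genes, 12 were higher and none lower, and all 20 had a difference above 0 with a median of 1.902. Without arrays 51 and 52 all 20 were still above 0 with a median of 1.548, and limma called 0 of them, with 14 below an unadjusted p of 0.05. Krt6b, a keratin of wounded and thickened epidermis, had 12781.3, 44770.8 and 73140.2 units in G6 tissue and 842.2, 7712 and 37174.2 in untreated tissue. The lowest G6 array lay inside the untreated range, and 4 of the 8 G6 arrays exceeded the highest untreated array. The difference was 2.55 ± 0.74 (adjusted p = 0.0187) and 2.58 ± 0.80 without the 2 arrays (adjusted p = 0.0971). The antimicrobial peptide gene Defb3 had 3162.7, 11488 and 38304.1 units in G6 tissue and 18.3, 666.8 and 14812.4 in untreated tissue. Its rise of 4.00 ± 1.204 was the largest (adjusted p = 0.0227), and it stood at 4.36 without the 2 arrays (adjusted p = 0.0884). Krt16 (2.33 ± 0.62), Serpinb3a (2.35 ± 0.81), Sprr2f (2.87 ± 0.86) and Rptn (2.24 ± 0.61) were also among the 12 largest rises, passing over clone and predicted genes. Serpinb3a was not called in 11 of the 16 fits that each left out 1 array. The dimmer Rptn probe sets had the opposite sign and were not called (-0.20 and -0.09).

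Of 26 genes of the basal and barrier epidermis, 10 were higher and none lower, with a median of 1.078 and, without arrays 51 and 52, of 0.721 (0 called by limma, 8 below an unadjusted p of 0.05). The basal keratin Krt14 had 15856.9, 49119.6 and 60524.6 units in G6 tissue and 1921.8, 25276.7 and 43333.5 in untreated tissue, the lowest being array 52. Its difference was 1.19 ± 0.39 (adjusted p = 0.037), and 0.73 ± 0.36 without the 2 arrays (adjusted p = 0.37). The hair genes gave 0 calls among 26 by limma with all 16 arrays (6 below an unadjusted p of 0.05), and their median of 1.253 became -0.018 without arrays 51 and 52. The endothelial level moved the opposite way between the groups, and its part in the epidermal values was not tested.

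Of 25 neutrophil and acute inflammation genes, 7 were higher and none lower. Saa3, an acute-phase protein gene, had 1712.8, 9739.2 and 26868.1 units in G6 tissue and 792.5, 1259.8 and 4945.8 in untreated tissue. Of the 8 G6 arrays, 6 exceeded the highest untreated array, which was array 51. Saa3 rose by 2.47 ± 0.46 (adjusted p = 0.00028), and by 2.64 ± 0.49 without arrays 51 and 52 (adjusted p = 0.00159). The calprotectin genes S100a9 (2.38 ± 0.77) and S100a8 (1.90), which stand in the keratinocyte list too, and the chemokine gene Cxcl5 (2.16 ± 0.74) were higher with all arrays, and Saa3 alone of the list was called without the 2. In the 16 fits that each left out 1 array, Cxcl5 was not called in 11 and S100a9 in 8. The granulocyte genes Csf3r (0.07), Ngp (-0.43) and Ltf (-0.84) were not called. Of 26 macrophage genes limma called 0, with 0 below an unadjusted p of 0.05.

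Of 21 interferon-stimulated genes, 20 had a difference below 0 and Rsad2, which encodes viperin, was called. It had 1400.7, 1762.8 and 2459.4 units in G6 tissue and 2092.2, 6216.2 and 11378.1 in untreated tissue, with a difference of -1.54 ± 0.29 (adjusted p = 0.000282) and of -1.23 ± 0.30 without arrays 51 and 52 (adjusted p = 0.0306). Cell cycle genes gave 0 calls among 29 by limma (2 below an unadjusted p of 0.05), with a median of 0.236. Skeletal muscle genes gave 0 among 26 by limma (0 below an unadjusted p of 0.05).

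Of 29 hypoxia and glycolysis genes, 6 were higher and 1 lower. Egln3, a prolyl hydroxylase that is itself induced by hypoxia, had 3113.3, 5309.6 and 9509.2 units in G6 tissue and 1180, 2361.1 and 3932.3 in untreated tissue. It rose by 1.18 ± 0.23 (adjusted p = 0.000546) and by 0.998 ± 0.25 without arrays 51 and 52 (adjusted p = 0.0317). Higd1a, a mitochondrial protein gene induced by hypoxia, rose by 0.87 ± 0.15 (adjusted p = 0.000109) and by 0.70 ± 0.16 without them (adjusted p = 0.0145). These values are of its brightest probe set. The other kept Higd1a probe sets, tested on their own, were not called (0.36, adjusted p = 0.216, and 0.35, adjusted p = 0.38, with all arrays). Car12 (1.11 ± 0.31), Bnip3 (0.79), Slc2a1 (0.72) and Pgam1 (0.44) were higher with all arrays, Car9 (0.11), Pdk1 (0.17) and Ndrg1 (-0.02) were not called, and Adm, which encodes adrenomedullin, was lower with all arrays (-1.17 ± 0.24, adjusted p = 0.000854). Egln3 and Higd1a alone of the list were called without arrays 51 and 52.

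The genes lower at day 20 were set beside those that differed between untreated day 5 tissue and control flank, on arrays that the comparison does not use. Of 1301 genes at least 2-fold higher in untreated day 5 tissue than in control flank, where 7767 genes were called (52.8%) and 2558 of them differed at least 2-fold (17.4%), 360 were lower under G6 at day 20 (27.7%) and 39 higher (3%). Of 1257 genes at least 2-fold lower at day 5, 6 were lower (0.477%) and 34 higher (2.7%). Without arrays 51 and 52, 61 of the 1301 were lower (4.69%), beside 0.598% of all genes. Against control flank, 5148 genes differed in G6 tissue at day 20 (35%) and 6056 in untreated tissue at day 20 (41.1%), and the 2 counts share the control arrays. The count in untreated tissue was 4805 (32.6%) without arrays 51 and 52. Kdr was 0.21 above control in G6 tissue (adjusted p = 0.562) and 1.65 above it in untreated tissue (adjusted p = 5.98e-07), or 1.19 without arrays 51 and 52 (adjusted p = 0.000145). Esm1 was 3.08 above control in G6 tissue (adjusted p = 1.58e-05) and 4.87 above it in untreated tissue (adjusted p = 1.41e-10), or 4.43 without the 2 (adjusted p = 3.85e-08). Vegfa was 2.14 above control in G6 tissue and 2.66 above it in untreated tissue, or 2.03 without the 2. The injected virus carries a VEGF-A gene, and whether the Vegfa probe sets also read it was not tested. The milk protein gene Csn1s2a was below the filter level on all 8 G6 arrays and all 8 untreated arrays, and above it on all 8 control arrays.

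**Figure D4:**
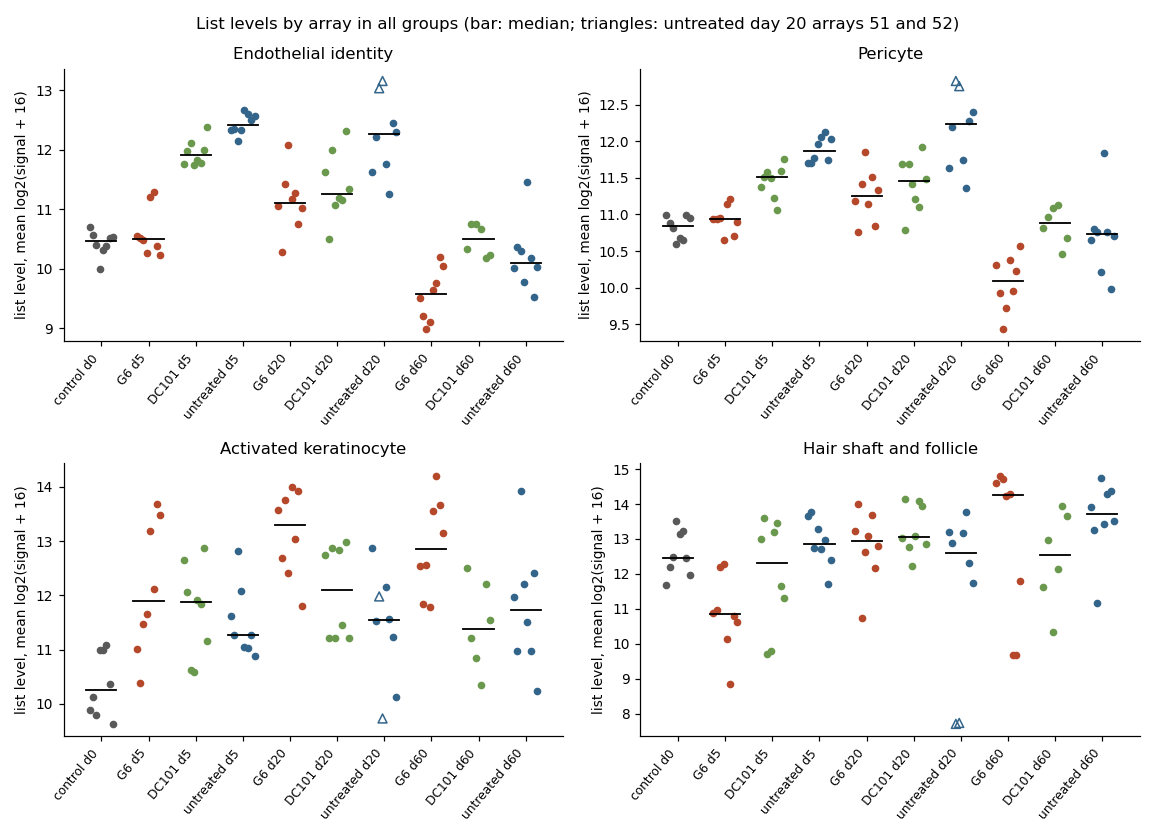
Mean log2(signal + 16) over the measured genes of 4 lists on each array of all 10 groups, ordered by day, with a bar at the group median and triangles for untreated day 20 arrays 51 and 52. The median endothelial level at day 20 is 11.108 in G6 tissue, 11.262 in DC101 tissue and 12.254 in untreated tissue, beside 10.456 in control flank.

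For several endothelial genes the G6 difference lay closer to 0 at day 20 than at day 5. At day 5, 4667 genes were called (31.7%), and 571 of the 885 genes lower at day 20 were lower then too, which is 64.5% of the day 20 list and 25.9% of the 2204 genes lower at day 5 (15% of all genes). Of the 88 genes lower at day 20 without arrays 51 and 52, 76 were lower at day 5 too, which is 86.4% of the 88 and 3.38% of 2248. Across genes, which are not independent, the log2 differences of the 2 days correlated with r = 0.386 and rho = 0.322 (0.376 and 0.269 without arrays 51 and 52), and the 2 comparisons share no array. The test of the change in the G6 difference (day 20 minus day 5) called 1349 genes (9.17%), 599 higher (4.07%) and 750 lower (5.1%). Esm1 changed by 2.91 (adjusted p = 0.0132), with -1.80 at day 20 against -4.71 at day 5, and Notch4 by 1.76 (adjusted p = 0.0248), with -1.98 against -3.73. Mest changed by 1.96 (adjusted p = 2.59e-05), with -1.27 at day 20 against -3.23 at day 5. Without arrays 51 and 52 the changes were 3.35 for Esm1 (adjusted p = 0.00523), 2.12 for Notch4 (adjusted p = 0.00716) and 2.20 for Mest (adjusted p = 1.61e-06). Aplnr (-0.40, adjusted p = 0.588), Rian (0.50, adjusted p = 0.242) and Alas2 (-0.42, adjusted p = 0.807) did not pass this test. Saa3 changed by 2.82 (adjusted p = 0.00432), with 2.47 at day 20 against -0.35 at day 5. Without the 2 arrays its change was 2.99 (adjusted p = 0.00277).

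Of 34 endothelial identity genes, 7 were called higher in this test with all arrays, 20 without untreated day 20 arrays 51 and 52, where 3.35% of all genes were, and 24 (3.72% of all genes) without also G6 day 5 arrays 13 and 14, on which the endothelial level was 11.20 and 11.28 beside 10.23 to 10.55 on the other 6. G6 day 5 arrays 13 and 14 also had the highest Actb 3' to 5' ratios of their group (2.347 and 2.427, group median 1.76). Of 26 hair genes, 17 were called higher with all arrays, 1 without arrays 51 and 52 and 0 without all 4, from the same fits. The largest changes downward were in Myoz3 (-3.70, and -4.71 without arrays 51 and 52), a sarcomere protein gene that was below the filter level on 7 of the 8 untreated day 5 arrays, and in the transcription factor gene Klf15 (-3.38, and -3.60 without the 2), with -0.14 at day 20 against 3.24 at day 5. The hair genes Krt33a (5.59), Krtap11-1 (4.89) and Krtap15 (4.82) were among those that changed most upward. Without the 2 arrays they were at 3.69 (adjusted p = 0.0454), 3.36 (adjusted p = 0.0668) and 3.13 (adjusted p = 0.081).

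Against day 60, where 1751 genes were called (11.9%), the test of the change in the G6 difference called 11 genes (0.0747%), 2 higher (0.0136%) and 9 lower (0.0611%). The lower ones included Cldn15 (-1.47, adjusted p = 0.0261), Mcf2l (-1.18, adjusted p = 0.0436) and the clock gene Per1 (-0.99, adjusted p = 0.0166), and the higher ones were Pdlim4 (1.01) and Col3a1 (0.92). Of the 885 genes lower at day 20, 273 were lower at day 60, which is 30.8% of the day 20 list and 20% of the 1363 genes lower at day 60 (9.26% of all genes). Of the 88, 31 were lower at day 60 too (35.2% of the 88 and 2.19% of 1414). Without arrays 51 and 52 limma called 0 genes in this test, with 1161 below an unadjusted p of 0.05.

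**Figure D5:**
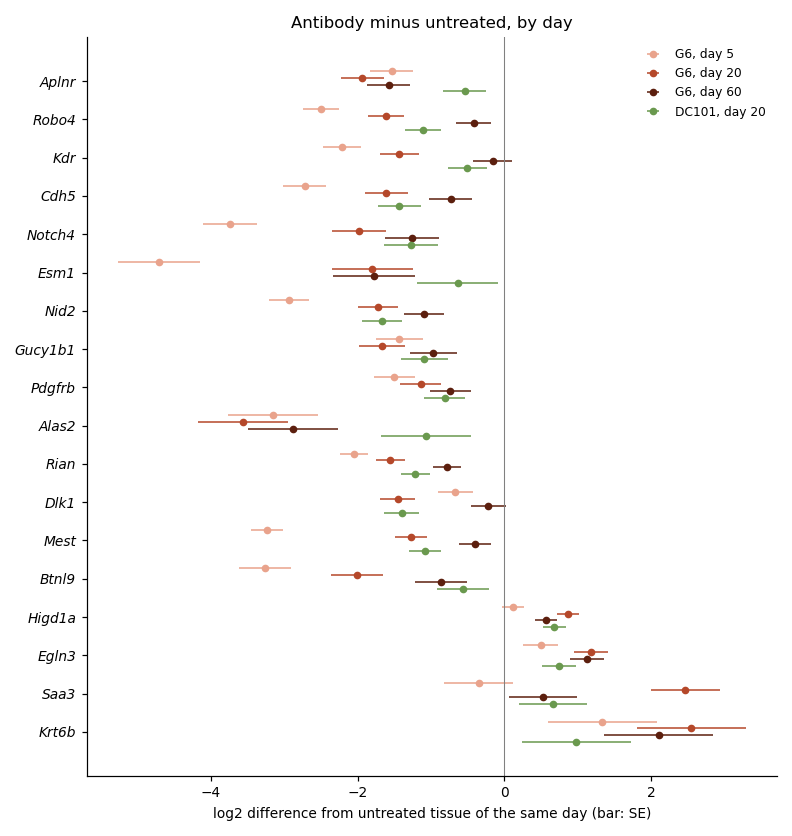
Log2 difference from untreated tissue of the same day, with its standard error, for 18 genes under G6 at days 5, 20 and 60 and under DC101 at day 20. Aplnr lies at -1.53, -1.93 and -1.58 under G6 at days 5, 20 and 60 and at -0.54 under DC101, while Esm1 lies at -4.71 at day 5 and -1.80 at day 20.

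G6 and DC101, an antibody to mouse VEGFR-2, were compared at day 20 at their own doses of 10 and 20 mg/kg, which differ. DC101 against untreated tissue called 1132 genes (7.69%), 359 higher (2.44%) and 773 lower (5.25%), from the same untreated arrays, and 151 (1.03%) without arrays 51 and 52, 57 higher (0.387%) and 94 lower (0.639%). The direct test of G6 minus DC101 called 36 genes (0.245%), 20 higher (0.136%) and 16 lower (0.109%). These calls depended on the processing. By limma, 0 genes were called with adjacent arrays averaged (1430 at an unadjusted p below 0.05), and 13 of the 36 with the mean of probe sets. Lower under G6 than under DC101 were Alas2 (-2.50, adjusted p = 0.0495), Btnl9 (-1.44, adjusted p = 0.0495), Aplnr (-1.39, adjusted p = 0.0205), Cyp1a1 (-1.202, adjusted p = 0.0495), Adm (-1.05, adjusted p = 0.0325) and Mcf2l (-0.95, adjusted p = 0.0154). Higher under G6 were Cdhr1 (adjusted p = 0.0325), which was below the filter level on all 8 DC101 arrays, Ccnb1ip1 (1.39, adjusted p = 0.0286), Ajuba (1.01, adjusted p = 0.0325) and Bcl3 (0.90, adjusted p = 0.0179). Of these 10 genes, Mcf2l, Cdhr1, Ccnb1ip1, Ajuba and Bcl3 were also called with the mean of probe sets. Dlk1 (-1.45 under G6 and -1.399 under DC101, against untreated) and Nid2 (-1.72 under G6 and -1.67 under DC101) were lower under both antibodies. Under DC101, Dlk1 was at -1.46 (adjusted p = 0.000993) and Nid2 at -1.23 (adjusted p = 0.00801) without arrays 51 and 52. The direct differences were -0.05 ± 0.24 for Dlk1 (adjusted p = 0.953) and -0.04 ± 0.27 for Nid2 (adjusted p = 0.967). Kdr, at -1.43 under G6 and -0.51 under DC101 (-0.97 and -0.05 without the 2 arrays), did not pass the direct test (-0.92, adjusted p = 0.092). None of the 34 endothelial identity genes was among the 36, by limma, where 0.245% of all genes were, so this count says little about them. Their median G6 minus DC101 was -0.295, beside -0.007 for all genes. Against untreated tissue with all arrays, 28 were lower under G6 (median -1.14) and 17 under DC101 (median -0.764).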

How the data were processed

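Each array gave 1 intensity value per probe set, which the authors deposited as linear MAS5 signal from GCOS 1.3, per the submitters' processing notes, and the values of every array had a 2% trimmed mean of 1500. Values were taken as log2(signal + 16). Probe sets above 331.2, the 40th percentile, on at least 6 arrays were kept, and the brightest of each gene was used, which left 14718 genes named from the platform's annotation. limma 3.58.1 in R 4.3.3 (lmFit and eBayes with an intensity trend) was fitted over all 78 arrays and 10 groups, so that all groups share the estimate of spread, with Benjamini-Hochberg adjustment over all genes and a threshold of 0.05. The fit was tested on simulated data. The number of arrays limits the precision.

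Groups came from the source labels. The genes and the 33 lists were chosen with earlier results of these data known, some lists by an earlier session that had seen the data. The rule for naming took the 12 called genes that fell most and the 12 that rose most, leaving aside clone-named and predicted loci. It also took the 3 largest changes of each list and a set of VEGF and vessel genes whatever they showed. The 4 largest changes each way of the other comparisons were taken too. Not all of these genes are given in the text. Left out are, for example, Gsdmc2, Sprr2j-ps, Sprr2i and Ccl20 of the rises, and Icam2 and Mcam of the lists. Genes outside this rule (the imprinted genes, and genes singled out from those called in all 6 settings) were chosen after their values were seen. Alternatives changed the pseudocount, filter, normalization, probe set summary, arrays and model. All deposited sample columns were used.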

Additional observations from a re-analysis of the deposited data

Results flagged for a closer look

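Of 150 groups of 8 arrays examined, 3 held 1 array far from the rest by Dixon's test, where chance gives about 1 in 20. G6 array 60 had a Dll4 level of 9.87, above the other G6 arrays. Untreated array 54 had an Aplnr level of 14.26, below the other untreated arrays, and untreated array 49 had a Tcf15 level of 9.34 (all as log2(signal + 16)).

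The G6 difference at day 20 departed from that at day 5, by limma's test of the change itself with an adjusted p below 0.05, for 9 of the genes described. The change, day 20 minus day 5, was 1.96 for Mest, 1.76 for Notch4, 1.34 for Dll4, 2.91 for Esm1, 1.21 for Nid2, 0.76 for Higd1a, 2.82 for Saa3, 3.45 for Krt25 and -3.14 for Scg2. Without untreated day 20 arrays 51 and 52, Krt25 (1.54, adjusted p = 0.194) and Higd1a (0.58, adjusted p = 0.0734) no longer passed, and the other 7 did. Without also G6 day 5 arrays 13 and 14, Scg2 was at -2.27 (adjusted p = 0.0565) and no longer passed. Scg2 was below the filter level on all 8 G6 day 20 arrays and all 8 untreated day 5 arrays, so the size of its change is not resolved.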

How the results depend on the processing

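Among the alternatives no called gene of those named changed sign, while 11 of the 153 named genes, none of them called, did, among them Vegfa (-0.55 to 0.10), Krtap15 (-0.17 to 1.78) and Krtap11-1 (-0.15 to 1.59). Of the called genes named, 3 had another kept probe set of opposite sign, Rptn among them. Of the 33 list medians, 6 changed sign without untreated arrays 51 and 52 (hair, skeletal muscle, adipocyte, clock, macrophage and protease). The 1469 genes called between G6 and untreated tissue (584 higher, 885 lower) became 98 (10 higher, 88 lower) without untreated arrays 51 and 52, 89 (15 higher, 74 lower) with only the 2 groups in the fit, 11 (2 higher, 9 lower) with both changes, an alternative chosen after seeing the data, and 516 (154 higher, 362 lower) with adjacent arrays averaged. Array weights gave 2827 (1288 higher, 1539 lower), and testing against a 2-fold change gave 0 (0 higher, 0 lower), with 69 at an unadjusted p below 0.05. RNA ratios as covariates gave 334 higher, and every probe set tested on its own gave 1339 lower. Leaving out 1 array gave 558 to 2123 genes in all, 117 to 916 higher and 441 to 1207 lower, the lowest without untreated array 52 and the highest without untreated array 54. Totals moved by over 1.5 times without G6 arrays 61 (923) and 63 (771) and untreated arrays 51 (803), 52 (558) and 56 (859).

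The change in the G6 difference between days 20 and 5 was called for 3397 genes with array weights and 430 with adjacent arrays averaged. Between days 20 and 60 the 11 genes became 6 without a filter, 24 with quantile normalization, 205 with array weights, 5 with RNA covariates, 0 without arrays 51 and 52 (1161 unadjusted) and 0 with adjacent arrays averaged (1087 unadjusted). G6 minus DC101 gave 15 genes with the mean of probe sets, 593 with array weights, 86 with RNA covariates and 0 with adjacent arrays averaged (1430 unadjusted). Also chosen after seeing the data were leaving out G6 day 5 arrays 13 and 14, leaving arrays 51 and 52 out of the comparisons with DC101, with control flank and between days, and the folds set against the filter level. No paired analysis was possible because the running numbers in the titles are not shared between groups. Probe sets near the filter level are not resolved from background.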
